A study of Mus musculus with 10 samples.

Results

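Collagens and stromal matrix genes were followed in bulk RNA of 10 subcutaneous mouse melanomas as a list of 35 genes, out of 45706 gene identifiers in the count table. The list was given as gene symbols, and each of the 35 symbols matched 1 Ensembl identifier through the GENCODE M21 names of the GRCm38 genome. It holds 6 fibril-forming collagen chains, 5 basement membrane and network collagens, 7 beaded-filament, anchoring and fibril-associated collagens, 4 adhesive and microfibril glycoproteins, 3 small leucine-rich proteoglycans, 5 matricellular proteins, 3 crosslinking enzymes and the 2 PDGF receptors. All 35 passed the filter on low counts, among the 14550 genes tested.

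The tumors grew from a *Braf* V600E-driven melanoma cell line that comes from C57BL/6 mice carrying a conditional *Braf* allele, Tyr::CreERT2 and a p16INK4a deletion. The cells were either COX-competent (*Ptgs*+/+) or made deficient in *Ptgs1* and *Ptgs2* by CRISPR/Cas9 (*Ptgs*-/-), so they differed in the cyclooxygenases that start prostaglandin synthesis. Replicate *Ptgs*-/- tumors repeat the edited line and not the edit itself. No tumor of edited cells with COX activity restored was analysed here, and other differences between the parental and edited lines were not tested. Every host was an 8-week-old C57BL/6 mouse whose own cells kept both genes, and every tumor was taken on day 4. There were 4 *Ptgs*+/+ tumors and 3 *Ptgs*-/- tumors of untreated mice, and 3 *Ptgs*-/- tumors of mice depleted of NK cells, which the labels give as anti-NK1.1 (clone PK136, 200 µg) with anti-asialo GM1 (30 µg) on days 0 and 2. No NK cell-depleted *Ptgs*+/+ tumor was analysed here, so the depletion was compared in *Ptgs*-/- tumors alone. The paper reports that COX-deficient tumors were already smaller than COX-competent ones at this early time. It also reports that NK cell depletion brought their weight close to that of COX-competent tumors. The labels give no tumor sizes, and the part of size in the comparisons below was not tested. The labels do not say whether the tumors came from separate animals, and p-values then measure the spread between these samples.

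The extracellular matrix of a tumor is made largely by fibroblasts, pericytes and endothelial cells, with a share from the tumor cells. Fibril-forming collagens assemble into the cables that give connective tissue its strength, fibronectin and fibrillin lay down the first scaffold in healing tissue, and lysyl oxidases crosslink the finished fibers. Type IV collagen forms the sheet-like basement membrane around vessels, fat and muscle cells, and collagens VIII, XV and XVIII lie in or beside it. Matricellular proteins such as thrombospondins and tenascin-C bind matrix and receptors without bearing load and are switched on in wounds and tumors. In bulk tissue, fewer cells of a type and less RNA per cell cannot be told apart.

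Libraries held 8150556 to 12839174 counts, and a floor of 3 counts equals 0.234 to 0.368 CPM (counts per 1000000 counts of a library). The lowest count of any of the 35 genes in any tumor was 108, for *Col7a1*. As a check of the labels, *Ptgs2* measured 254 ± 110 CPM in *Ptgs*+/+ tumors (SD, n = 4) and 43.0 ± 27.6 CPM in *Ptgs*-/- tumors (n = 3). In NK cell-depleted *Ptgs*-/- tumors it measured 44.9 ± 4.56 CPM (n = 3). *Ptgs*+/+ replicate 3, at 94.4 CPM, was the lowest of its group and not far above *Ptgs*-/- replicate 1, at 74.8 CPM. *Ptgs1* measured 152 ± 17.5, 94.0 ± 15.0 and 96.5 ± 1.24 CPM in the same order of groups. *Ncr1*, an NK cell receptor gene, had 20, 48 and 77 counts in *Ptgs*-/- tumors and 0 in each of the 3 depleted ones. Of 7 melanocytic markers, *Tyr*, *Tyrp1* and *Mlana* were at or below the floor in every tumor and the 7 summed to 20.6 to 36.4 CPM, so pigment genes did not mark the tumor cells here. Libraries came from QuantSeq, which counts 3′ ends, so a count does not scale with gene length, and levels are compared below between tumors and not between genes.

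Promoter sequence is shown first for 4 chains whose counts the results turn on, the fibril-forming *Col1a2* and *Col3a1*, which rose in *Ptgs*-/- tumors, and the type IV pair *Col4a1* and *Col4a2*, which fell. The windows run from 250 bases before to 50 bases after the RefSeq start on GRCm38.p6. *Col1a2* is chr6:4505368-4505667 (+ strand), *Col3a1* chr1:45311288-45311587 (+ strand), *Col4a1* chr8:11312777-11313076 (− strand) and *Col4a2* chr8:11312555-11312854 (+ strand). Capitals mark, on either strand, the letters of the TATA box (TATAAA), of the CCAAT box and of the GC box (GGGCGG).
Col1a2: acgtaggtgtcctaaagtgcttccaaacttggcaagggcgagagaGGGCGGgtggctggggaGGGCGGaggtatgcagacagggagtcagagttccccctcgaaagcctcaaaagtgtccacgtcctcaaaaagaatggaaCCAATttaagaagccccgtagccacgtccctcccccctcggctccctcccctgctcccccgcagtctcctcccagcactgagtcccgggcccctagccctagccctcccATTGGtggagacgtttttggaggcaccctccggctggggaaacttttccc
Col3a1: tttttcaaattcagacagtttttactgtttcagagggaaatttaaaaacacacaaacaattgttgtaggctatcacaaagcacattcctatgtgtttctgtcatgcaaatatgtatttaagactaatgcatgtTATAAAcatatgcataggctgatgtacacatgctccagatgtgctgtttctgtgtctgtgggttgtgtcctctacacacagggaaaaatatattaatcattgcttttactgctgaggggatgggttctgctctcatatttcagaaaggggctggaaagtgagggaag
Col4a1: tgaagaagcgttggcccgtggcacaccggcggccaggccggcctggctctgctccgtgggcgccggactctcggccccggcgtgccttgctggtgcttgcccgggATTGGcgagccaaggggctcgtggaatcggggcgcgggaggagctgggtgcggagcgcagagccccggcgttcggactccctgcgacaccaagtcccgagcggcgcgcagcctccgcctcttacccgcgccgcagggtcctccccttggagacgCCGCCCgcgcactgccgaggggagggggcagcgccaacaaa
Col4a2: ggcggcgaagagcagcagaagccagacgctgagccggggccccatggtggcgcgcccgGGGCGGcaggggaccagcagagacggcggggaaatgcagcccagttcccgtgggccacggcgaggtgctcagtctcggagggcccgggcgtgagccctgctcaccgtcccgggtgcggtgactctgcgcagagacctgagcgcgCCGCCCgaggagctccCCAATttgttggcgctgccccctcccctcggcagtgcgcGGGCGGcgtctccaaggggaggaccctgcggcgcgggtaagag
*Col4a1* and *Col4a2* are transcribed away from each other, their starts lie 21 bases apart and 78 bases belong to both windows, so the pair share promoter sequence. The *Col3a1* window holds the TATAAA letters and neither of the other motifs, with 37.7% G and C, while *Col1a2* and the type IV pair have no TATAAA and 61%, 74% and 73.7% G and C. RefSeq windows were found for 23 of the 35 genes, and *Col1a1*, *Col5a2*, *Col12a1*, *Col14a1*, *Fn1*, *Dcn*, *Lum*, *Thbs1*, *Lox*, *Loxl1*, *Loxl2* and *Pdgfrb* had none. TATAAA was in 4 of the 23 (17.4%) against 15.7% of all 27025 genes with a window, CCAAT in 9 (39.1%) against 41.1%, and GGGCGG in 15 (65.2%) against 38.2%. The letters of the cAMP response element, TGACGTCA, were in none of the 23 (2.03% of all genes), as was GTCTAGAC (0.248%), and TGANTCA was in *Col6a1* alone (8.97%). These are matches of letters in a window, both strands searched, and describe the sequence only.

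The first comparison asked how the matrix genes differed between *Ptgs*-/- and *Ptgs*+/+ tumors, both in mice with NK cells. Of the 35 genes, 12 rose and 7 fell at an FDR at or under 0.05 in edgeR's quasi-likelihood test, the meaning of rose and fell throughout. Over all genes tested, 12.1% rose and 11% fell, both smaller shares than among the 35 genes. Log2 fold changes are given ± their standard error. With the added demand of a log2 fold change of 1.5 or more in either direction, 2 fell (*Thbs1* and *Col18a1*) and none rose, against 1.01% of all genes that fell and 3.14% that rose by both criteria. The median log2 fold change of the 35 was 0.28, against -0.01 over all genes. The direction differed between classes of matrix, and the fibril-forming chains had a median of 0.49 and the basement membrane and network chains one of -0.74. Summed over the 35 genes, the share of all counts was 2.10% ± 0.20 in *Ptgs*+/+ tumors (SD, n = 4; range 1.82 to 2.28), 2.90% ± 0.25 in *Ptgs*-/- tumors (n = 3; 2.73 to 3.19) and 2.45% ± 0.24 in NK cell-depleted *Ptgs*-/- tumors (n = 3; 2.22 to 2.70). The mean of log2(CPM + 1) over the 35 genes, which weighs each gene equally, was 7.76 ± 0.08, 7.87 ± 0.14 and 7.76 ± 0.09 in the same order, and its groups overlapped.

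**Figure D1:**
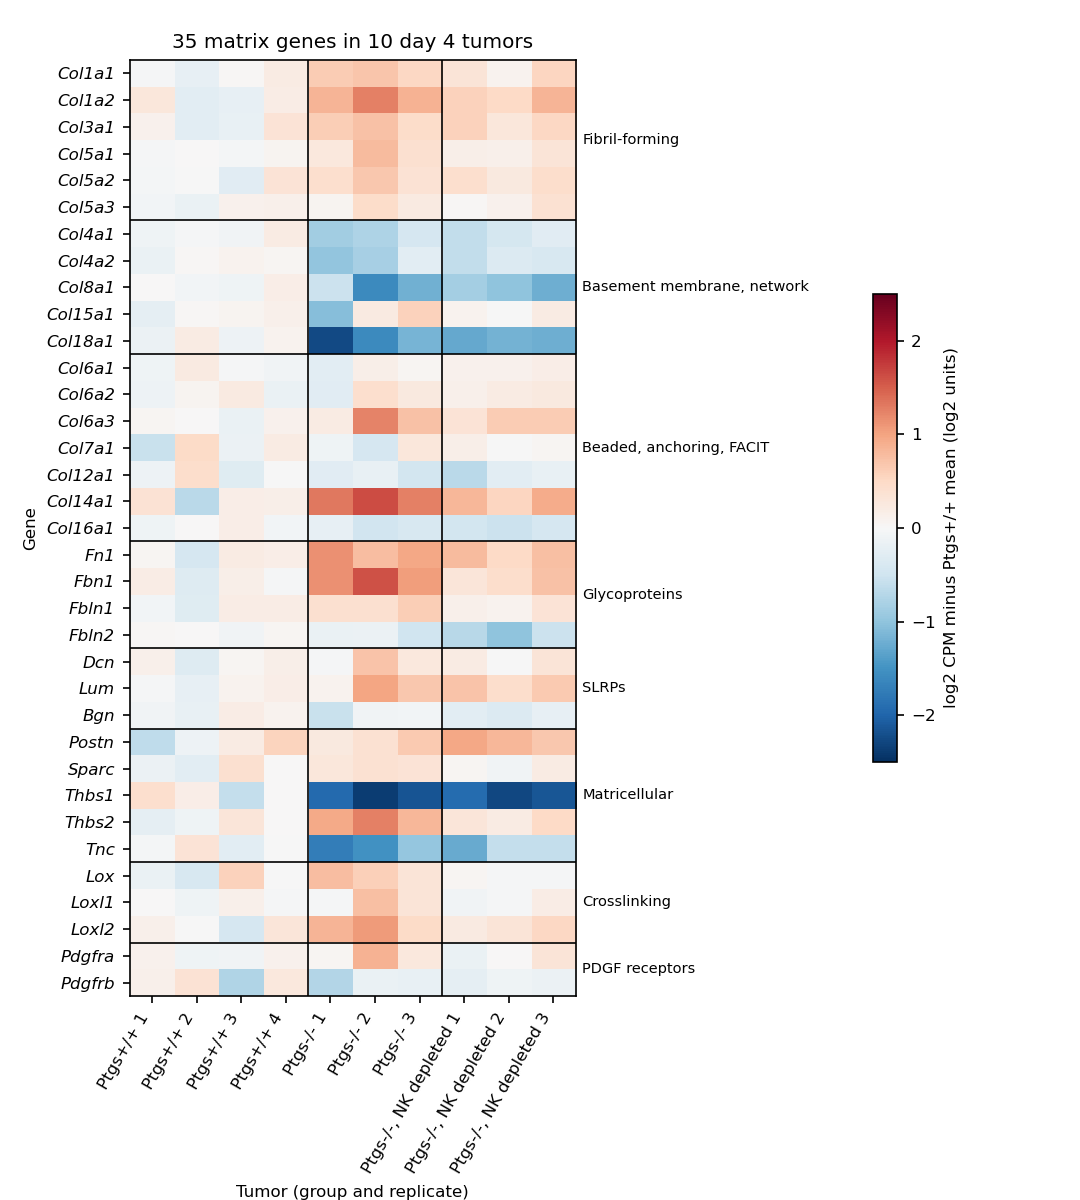
Heat map of the 35 matrix genes (rows, grouped by class) in the 10 tumors (columns), colored by log2 CPM minus the mean log2 CPM of the 4 *Ptgs*+/+ tumors. Most fibril-forming collagens are red in all 6 *Ptgs*-/- tumors, whereas *Col4a1*, *Col4a2*, *Col8a1*, *Col18a1*, *Thbs1* and *Tnc* are blue in all 6.

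Of the 6 fibril-forming collagens, 5 rose and none fell. *Col1a1* and *Col1a2* encode the chains of type I collagen, the main protein of skin and bone. *Col1a1* measured 2920, 2618, 3060 and 3462 CPM in *Ptgs*+/+ tumors, 4648, 4853 and 4288 CPM in *Ptgs*-/- tumors and 3737, 3198 and 4346 CPM in depleted *Ptgs*-/- tumors. *Col1a2* measured 3246, 2219, 2312 and 3037 CPM in *Ptgs*+/+ tumors, 4792, 6349 and 4853 CPM in *Ptgs*-/- tumors and 3966, 3763 and 4798 CPM in depleted *Ptgs*-/- tumors. No *Ptgs*-/- tumor overlapped a *Ptgs*+/+ tumor for either chain, and both rose (log2 fold change 0.55 ± 0.12, edgeR FDR = 0.00744 for *Col1a1* and log2 fold change 0.92 ± 0.16, edgeR FDR = 0.00197 for *Col1a2*). *Col3a1*, whose product forms thin fibrils in skin and vessel walls, measured 2239, 1738, 1845 and 2657 CPM in *Ptgs*+/+ tumors, 3197, 3491 and 2879 CPM in *Ptgs*-/- tumors and 3121, 2547 and 3011 CPM in depleted *Ptgs*-/- tumors. It rose (log2 fold change 0.53 ± 0.14, edgeR FDR = 0.0201), and the groups did not overlap. *Col5a1* and *Col5a2* encode type V collagen, which sits in the core of type I fibrils and sets their width. *Col5a1* measured 248, 255, 245 and 264 CPM in *Ptgs*+/+ tumors, 304, 436 and 332 CPM in *Ptgs*-/- tumors and 278, 275 and 316 CPM in depleted *Ptgs*-/- tumors. *Col5a2* measured 168, 172, 143 and 221 CPM in *Ptgs*+/+ tumors, 232, 276 and 223 CPM in *Ptgs*-/- tumors and 234, 207 and 237 CPM in depleted *Ptgs*-/- tumors. Both rose (log2 fold change 0.44 ± 0.12, edgeR FDR = 0.0212 for *Col5a1* and log2 fold change 0.41 ± 0.14, edgeR FDR = 0.0485 for *Col5a2*), and the lowest *Ptgs*-/- value of *Col5a2* was only just above the highest *Ptgs*+/+ one. *Col5a3*, a further type V chain, ranged from 257 to 401 CPM over all tumors and did not pass (log2 fold change 0.20 ± 0.12, edgeR FDR = 0.267).

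**Figure D2:**
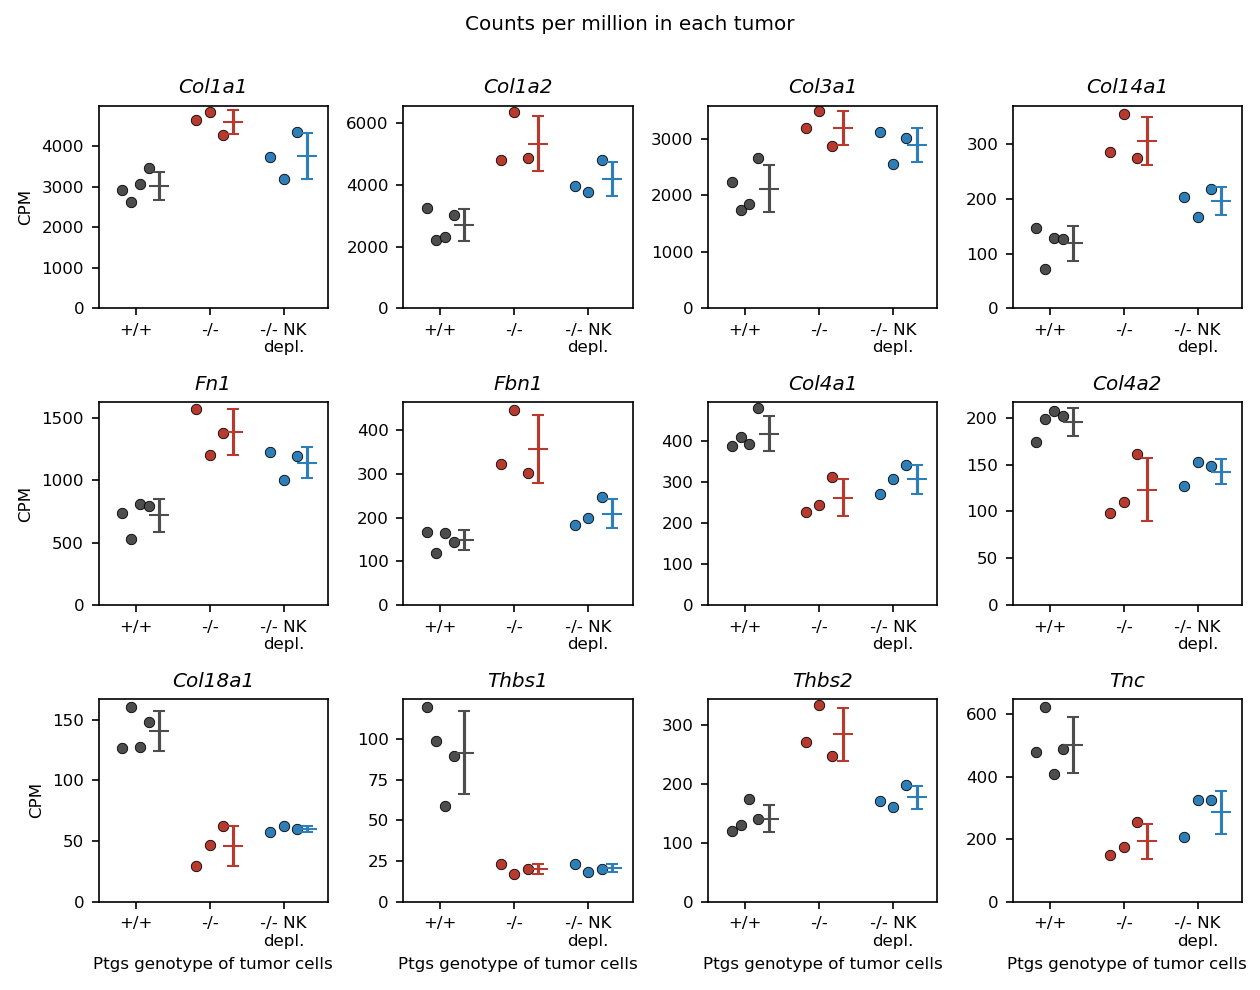
CPM of 12 matrix genes in each tumor (points, linear axis from 0), for *Ptgs*+/+ (gray, n = 4), *Ptgs*-/- (red, n = 3) and NK cell-depleted *Ptgs*-/- tumors (blue, n = 3), with the mean and SD beside them. The red points of *Col1a1*, *Col1a2*, *Col3a1*, *Col14a1*, *Fn1*, *Fbn1* and *Thbs2* lie above every gray point, and those of *Col4a1*, *Col4a2*, *Col18a1*, *Thbs1* and *Tnc* below every gray point.

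Basement membrane and network collagens went the other way, with 4 of 5 lower and none higher. *Col4a1* measured 387, 408, 392 and 479.9 CPM in *Ptgs*+/+ tumors, 227, 243 and 312 CPM in *Ptgs*-/- tumors and 271, 307 and 342 CPM in depleted *Ptgs*-/- tumors. *Col4a2* measured 174, 199, 207 and 202 CPM in *Ptgs*+/+ tumors, 98.6, 109.7 and 162 CPM in *Ptgs*-/- tumors and 127, 153 and 148 CPM in depleted *Ptgs*-/- tumors. These chains assemble together into the type IV collagen trimer, and both fell by nearly the same amount (log2 fold change -0.74 ± 0.13, edgeR FDR = 0.00195 for *Col4a1* and log2 fold change -0.73 ± 0.15, edgeR FDR = 0.00575 for *Col4a2*). Within each tumor *Col4a1* had 2.13-fold the counts of *Col4a2* in *Ptgs*+/+ tumors, 2.14-fold in *Ptgs*-/- tumors and 2.15-fold in depleted *Ptgs*-/- tumors (geometric mean ratios, ranges 1.89 to 2.37, 1.93 to 2.30 and 2.01 to 2.31). *Col8a1*, a short-chain network collagen of vessel walls, measured 219.7, 208, 202 and 244 CPM in *Ptgs*+/+ tumors, 149, 72.4 and 95.4 CPM in *Ptgs*-/- tumors and 121, 109 and 93.1 CPM in depleted *Ptgs*-/- tumors. It fell (log2 fold change -1.11 ± 0.21, edgeR FDR = 0.00307), and the 3 *Ptgs*-/- tumors spread more widely than the 4 *Ptgs*+/+ ones. *Col18a1* encodes the basement membrane proteoglycan whose C-terminal fragment is endostatin. It measured 126, 160.4, 127 and 148 CPM in *Ptgs*+/+ tumors, 29.3, 46.6 and 62.1 CPM in *Ptgs*-/- tumors and 57.3, 62.0 and 60.2 CPM in depleted *Ptgs*-/- tumors. Its fall (log2 fold change -1.67 ± 0.20, edgeR FDR = 0.000301) was the deepest of any collagen on the list, and no *Ptgs*-/- value was above 62.1 CPM while no *Ptgs*+/+ value was below 126 CPM. *Col15a1*, its nearest relative in structure, did not follow, at 93.2 to 118 CPM in *Ptgs*+/+ tumors and 52.4 to 162 CPM in *Ptgs*-/- tumors (log2 fold change -0.00 ± 0.27, edgeR FDR = 0.996). *Col18a1* (ENSMUSG00000001435) lies at chr10:77052178-77166548 on the − strand, and its 3′ end overlaps *Slc19a1* on the opposite strand. *Slc19a1* averaged 16.2 CPM in *Ptgs*+/+, 11.8 CPM in *Ptgs*-/- and 12.3 CPM in depleted *Ptgs*-/- tumors. Whether the counting used strand is not given in the sources used here.

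Endothelial markers were lower in the same tumors as the basement membrane collagens. Of 10 markers, none was at or below the floor in every tumor, 4 fell (*Pecam1*, *Cdh5*, *Tie1* and *Esam*) and none rose in *Ptgs*-/- against *Ptgs*+/+ tumors. They summed to 485 to 565 CPM in *Ptgs*+/+ tumors, 180 to 429 CPM in *Ptgs*-/- tumors and 310 to 464 CPM in depleted *Ptgs*-/- tumors. In depleted *Ptgs*-/- against *Ptgs*+/+ tumors none of the 10 passed (median log2 fold change -0.45), whereas *Col4a1*, *Col8a1* and *Col18a1* fell. Of 11 pericyte and smooth muscle markers, 1 fell in untreated *Ptgs*-/- against *Ptgs*+/+ tumors. In the same order of groups, these markers summed to 315 to 527, 171 to 322 and 462 to 881 CPM. Without *Des*, which skeletal muscle also expresses, the remaining 10 summed to 302 to 512, 142 to 308 and 247 to 406 CPM. Fat markers, 8 genes of which none passed, summed to 1700 to 8514, 422 to 5159 and 2771 to 5912 CPM. Their part in the lower basement membrane collagens was not tested.

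Among the beaded-filament, anchoring and fibril-associated collagens, 2 of 7 rose and 1 fell. *Col14a1* (ENSMUSG00000022371, chr15:55307750-55520803, + strand) encodes a fibril-associated collagen that binds the surface of type I fibrils. It measured 147, 72.0, 128 and 127 CPM in *Ptgs*+/+ tumors, 286, 355 and 275 CPM in *Ptgs*-/- tumors and 203, 167 and 217 CPM in depleted *Ptgs*-/- tumors. The 3 groups were fully separated, and its rise (log2 fold change 1.31 ± 0.20, edgeR FDR = 0.00102) was the largest of the 35 genes. *Col6a3*, the large chain of the beaded microfibrils of type VI collagen, measured 615, 595, 532 and 641 CPM in *Ptgs*+/+ tumors, 689.5, 1402 and 989 CPM in *Ptgs*-/- tumors and 753, 917 and 921 CPM in depleted *Ptgs*-/- tumors. It rose (log2 fold change 0.73 ± 0.19, edgeR FDR = 0.0176), and replicate 2 of the *Ptgs*-/- tumors was far above the others. The other type VI chains did not pass, with *Col6a1* at 74.6 to 105 CPM over all tumors (log2 fold change -0.08 ± 0.12, edgeR FDR = 0.671) and *Col6a2* at 108 to 177 CPM (log2 fold change 0.09 ± 0.16, edgeR FDR = 0.735). *Col16a1*, a fibril-associated chain, measured 329.8, 356, 394 and 336 CPM in *Ptgs*+/+ tumors, 307, 253 and 267 CPM in *Ptgs*-/- tumors and 256, 243 and 265 CPM in depleted *Ptgs*-/- tumors. It fell (log2 fold change -0.42 ± 0.10, edgeR FDR = 0.0129). *Col12a1*, at 25.2 to 54.9 CPM, and *Col7a1*, the anchoring fibril collagen below the epidermis, at 10.1 to 20.8 CPM, did not pass (log2 fold change -0.38 ± 0.19, edgeR FDR = 0.161 and log2 fold change -0.16 ± 0.23, edgeR FDR = 0.66).

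Both main scaffold glycoproteins rose. *Fn1* encodes fibronectin, the adhesive protein on which collagen fibrils are first deposited, and measured 735, 530.1, 813 and 796 CPM in *Ptgs*+/+ tumors, 1570, 1202 and 1377 CPM in *Ptgs*-/- tumors and 1225, 999 and 1197 CPM in depleted *Ptgs*-/- tumors. *Fbn1* encodes fibrillin-1, the backbone of elastic microfibrils, and measured 168, 119, 164 and 145 CPM in *Ptgs*+/+ tumors, 324, 448 and 303 CPM in *Ptgs*-/- tumors and 183, 199 and 247 CPM in depleted *Ptgs*-/- tumors. Each *Ptgs*-/- tumor was above each *Ptgs*+/+ tumor for both, and both rose (log2 fold change 0.89 ± 0.15, edgeR FDR = 0.00169 for *Fn1* and log2 fold change 1.21 ± 0.17, edgeR FDR = 0.000589 for *Fbn1*). The fibulins, which link fibronectin to elastic and basement membrane structures, had separate groups and did not pass. *Fbln2* measured 195, 194, 180.2 and 199.8 CPM in *Ptgs*+/+ tumors, 171, 174 and 136 CPM in *Ptgs*-/- tumors and 119.5, 95.9 and 133 CPM in depleted *Ptgs*-/- tumors. Its values ran from *Ptgs*+/+ down to *Ptgs*-/- and down again to the depleted tumors (log2 fold change -0.32 ± 0.13, edgeR FDR = 0.0915 between the genotypes). *Fbln1* was at 16.9 to 24.0 CPM in *Ptgs*+/+ and 27.6 to 32.0 CPM in *Ptgs*-/- tumors (log2 fold change 0.40 ± 0.14, edgeR FDR = 0.0529).

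Of the small leucine-rich proteoglycans, which coat collagen fibrils, *Lum* alone passed. *Lum* (lumican) measured 68.9, 61.7, 74.9 and 79.0 CPM in *Ptgs*+/+ tumors, 75.5, 140.0 and 113 CPM in *Ptgs*-/- tumors and 115, 96.3 and 111 CPM in depleted *Ptgs*-/- tumors. It rose (log2 fold change 0.56 ± 0.17, edgeR FDR = 0.0351), although *Ptgs*-/- replicate 1 lay within the *Ptgs*+/+ values. *Dcn* (decorin) measured 1112, 824, 1059 and 1138 CPM in *Ptgs*+/+ tumors, 1002, 1684 and 1236 CPM in *Ptgs*-/- tumors and 1186, 1022 and 1283 CPM in depleted *Ptgs*-/- tumors. *Ptgs*-/- replicate 2 was the highest of all tumors and replicate 1 was among the *Ptgs*+/+ values, so *Dcn* did not pass (log2 fold change 0.28 ± 0.17, edgeR FDR = 0.253). *Bgn* (biglycan), at 501 to 832 CPM over all tumors, tended the other way (log2 fold change -0.28 ± 0.13, edgeR FDR = 0.136), and the within-tumor ratio of *Dcn* to *Bgn* averaged 1.40-fold in *Ptgs*+/+ tumors, 2.04-fold in *Ptgs*-/- tumors and 1.90-fold in depleted *Ptgs*-/- tumors.

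The matricellular genes split in opposite directions. *Thbs1* (ENSMUSG00000040152, chr2:118111876-118127133, + strand) encodes thrombospondin-1, which activates latent TGF-β and restrains vessel growth. It measured 119.6, 99.2, 58.8 and 89.5 CPM in *Ptgs*+/+ tumors, 23.1, 17.2 and 20.0 CPM in *Ptgs*-/- tumors and 23.3, 18.3 and 20.3 CPM in depleted *Ptgs*-/- tumors. The lowest *Ptgs*+/+ tumor was at 58.8 CPM and the highest of the 6 *Ptgs*-/- tumors at 23.3 CPM, and the fall (log2 fold change -2.25 ± 0.22, edgeR FDR = 9.71e-05) was the largest change of the 35 genes. *Thbs2*, which encodes the related thrombospondin-2 of fibroblasts, measured 120.3, 130.4, 174 and 140.3 CPM in *Ptgs*+/+ tumors, 271, 333 and 248 CPM in *Ptgs*-/- tumors and 172, 161 and 199 CPM in depleted *Ptgs*-/- tumors. It rose (log2 fold change 0.95 ± 0.14, edgeR FDR = 0.00101), and the ratio of *Thbs2* to *Thbs1* counts went from 1.57-fold in *Ptgs*+/+ to 14.1-fold in *Ptgs*-/- and 8.59-fold in depleted *Ptgs*-/- tumors. *Tnc* encodes tenascin-C, a hexameric protein of wound edges, and measured 478, 624, 409.5 and 489.8 CPM in *Ptgs*+/+ tumors, 149.9, 174 and 255 CPM in *Ptgs*-/- tumors and 208, 327 and 326 CPM in depleted *Ptgs*-/- tumors. It fell (log2 fold change -1.44 ± 0.22, edgeR FDR = 0.001), with no overlap between genotypes. *Sparc*, a collagen-binding glycoprotein, measured 5152, 4700, 7466 and 5695 CPM in *Ptgs*+/+ tumors, 6875, 7351 and 7141 CPM in *Ptgs*-/- tumors and 5882, 5303 and 6563 CPM in depleted *Ptgs*-/- tumors. *Ptgs*+/+ replicate 3 was the highest of all tumors, and *Sparc* did not pass (log2 fold change 0.25 ± 0.15, edgeR FDR = 0.245). *Postn* (periostin), which promotes collagen crosslinking, measured 87.2, 125, 157 and 198 CPM in *Ptgs*+/+ tumors, 159.6, 177 and 213 CPM in *Ptgs*-/- tumors and 263, 242 and 216 CPM in depleted *Ptgs*-/- tumors. The *Ptgs*-/- tumors overlapped the upper part of the *Ptgs*+/+ range and the depleted tumors above both (log2 fold change 0.31 ± 0.22, edgeR FDR = 0.326 for *Ptgs*-/- against *Ptgs*+/+). Platelets store thrombospondin-1, and of 5 platelet markers, with *Gp9* at or below the floor in every tumor, 2 of 4 tested fell (*Ppbp* and *Pf4*). Those 5 summed to 451 to 531 CPM in *Ptgs*+/+ tumors, 248 to 358 CPM in *Ptgs*-/- tumors and 264 to 300 CPM in depleted *Ptgs*-/- tumors. Their part in the *Thbs1* result was not tested.

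The crosslinking enzymes were all on the higher side, with 1 of 3 past the threshold. *Loxl2* measured 59.3, 53.6, 40.6 and 66.5 CPM in *Ptgs*+/+ tumors, 98.0, 114 and 75.5 CPM in *Ptgs*-/- tumors and 63.6, 67.7 and 77.9 CPM in depleted *Ptgs*-/- tumors. It rose (log2 fold change 0.74 ± 0.17, edgeR FDR = 0.0101), and the genotypes did not overlap. *Lox*, the founding lysyl oxidase, measured 130.3, 111, 219 and 147 CPM in *Ptgs*+/+ tumors, 249, 223 and 183 CPM in *Ptgs*-/- tumors and 153, 145 and 143 CPM in depleted *Ptgs*-/- tumors. *Ptgs*+/+ replicate 3 reached the *Ptgs*-/- range, and neither *Lox* (log2 fold change 0.47 ± 0.20, edgeR FDR = 0.109) nor *Loxl1* (log2 fold change 0.32 ± 0.16, edgeR FDR = 0.161, 121 to 220 CPM over all tumors) passed. Of the PDGF receptors, through which fibroblasts and pericytes are driven to grow, neither passed. *Pdgfrb*, the pericyte receptor, measured 78.4, 91.7, 42.8 and 86.5 CPM in *Ptgs*+/+ tumors, 43.1, 64.1 and 62.9 CPM in *Ptgs*-/- tumors and 61.6, 66.9 and 64.5 CPM in depleted *Ptgs*-/- tumors. *Ptgs*+/+ replicate 3 was as low as *Ptgs*-/- replicate 1 (log2 fold change -0.46 ± 0.23, edgeR FDR = 0.172), and *Pdgfra*, at 52.4 to 107 CPM over all tumors, was on the higher side (log2 fold change 0.38 ± 0.18, edgeR FDR = 0.154).

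**Figure D3:**
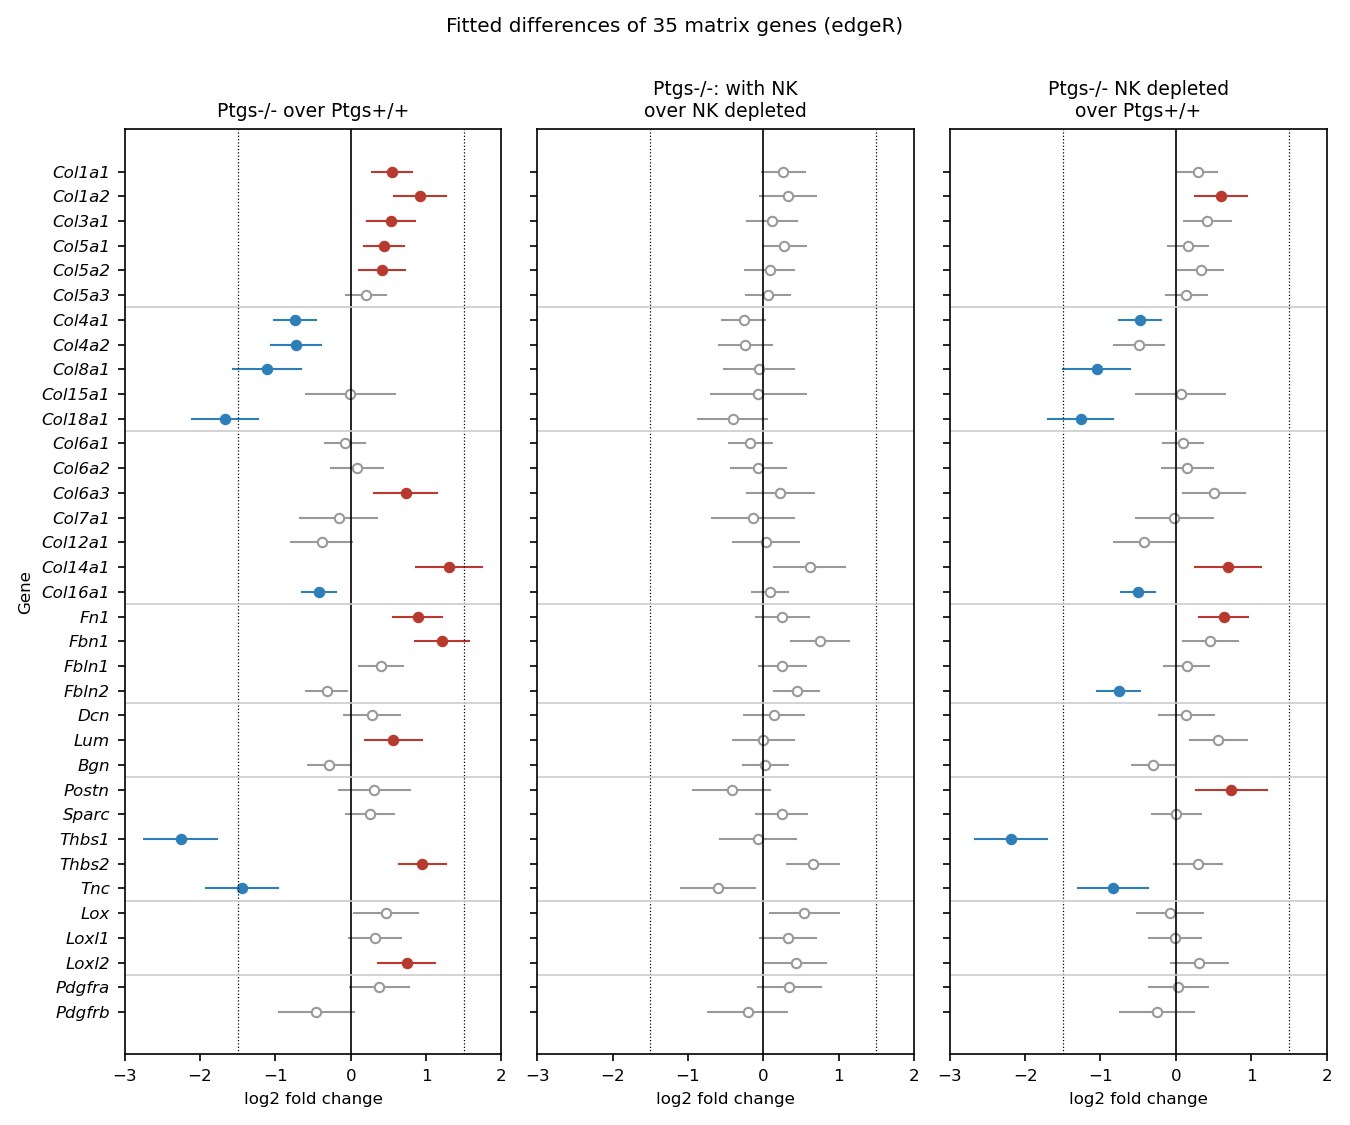
Fitted log2 fold changes (points) with 95% intervals (lines) of the 35 genes in the 3 comparisons, from edgeR; filled red and blue points passed an FDR of 0.05 as higher or lower, open gray points did not, and dotted lines mark a log2 fold change of 1.5 in either direction. In *Ptgs*-/- against *Ptgs*+/+ tumors 12 are red and 7 blue, between NK cell-replete and depleted *Ptgs*-/- tumors all 35 are open, and in depleted *Ptgs*-/- against *Ptgs*+/+ tumors 4 are red and 7 blue.

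Fibroblast markers were mixed. Of 15 markers, *Tcf21* was at or below the floor in every tumor, and of the 14 tested, of which *Pdgfra* is also on the matrix list, 7 rose and 1 fell in *Ptgs*-/- against *Ptgs*+/+ tumors. Those that rose include *Dpt*, *Pi16*, *Dpp4*, *Cd34*, *Scara5* and *Clec3b*, and the one that fell was *Twist2*, a mesenchymal transcription factor gene. *Pdgfra*, *Thy1*, *Pdpn*, *Fap*, *Prrx1* and *Lrp1* did not pass. The 15 summed to 1642 to 2072 CPM in *Ptgs*+/+ tumors, 2310 to 3324 CPM in *Ptgs*-/- tumors and 2051 to 2414 CPM in depleted *Ptgs*-/- tumors. Macrophage markers also rose (8 of 11, none at the floor), with sums in the same order of 2615 to 3225, 4400 to 6661 and 4044 to 4248 CPM. Proliferation genes fell (7 of 10), with sums likewise of 1860 to 2493, 1104 to 1247 and 1147 to 1622 CPM. Of 8 neutrophil markers tested, out of 10, none at the floor, 5 fell, with sums of 433 to 674, 110 to 164 and 175 to 233 CPM. The part of these cells in the matrix results was not tested.

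Replicate 2 of the *Ptgs*-/- tumors weighed on the rises. It had the highest value of all 10 tumors for 16 of the 35 genes. *Ptgs*+/+ replicate 2 had the lowest for 13 and the highest for 6. How often these tumors were highest or lowest over all genes was not counted. Without that *Ptgs*-/- tumor, 6 genes rose and 6 fell, and the median log2 fold change was 0.10. Calls over all genes also dropped in that fit, to 1156 higher and 906 lower of 14873, from 1763 and 1597 of 14550. *Col3a1*, *Col5a1*, *Col5a2*, *Col6a3*, *Lum*, *Loxl2* and *Col16a1* no longer passed. Some of these were also lost in other fits. Of 19 alternative fits, *Col5a2* did not pass in 10, *Lum* in 6, *Col16a1* in 3, and *Col3a1* and *Col6a3* in 2 each. In the other direction, *Fbln1*, just short of the FDR in the main fit, passed in 6 of the 19. *Col1a1*, *Col1a2*, *Col14a1*, *Fn1*, *Fbn1*, *Thbs2*, *Col4a1*, *Col4a2*, *Col8a1*, *Col18a1*, *Thbs1* and *Tnc* passed without any 1 of the 10 tumors. Sample titles carry 2 codes, and within the libraries of the code that covers 8 of the 10 tumors, 10 genes rose and 6 fell. Over all genes in that fit, 1236 of 14749 rose and 986 fell. The other code is on *Ptgs*+/+ replicate 4 and *Ptgs*-/- replicate 3 and on no depleted tumor. It is therefore uneven between depleted and untreated tumors.

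**Figure D4:**
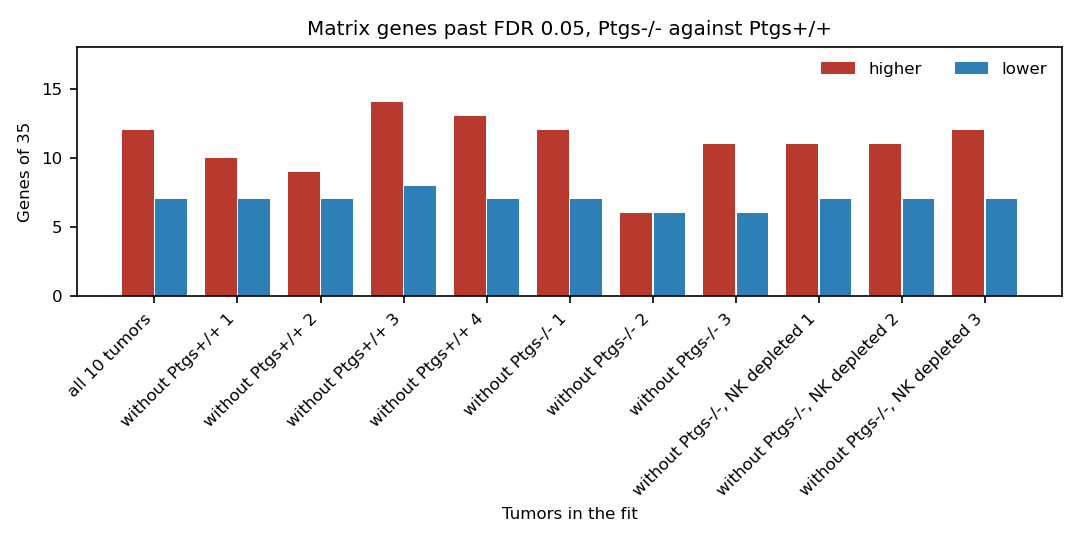
Number of the 35 matrix genes that rose (red) or fell (blue) at an FDR of 0.05 in *Ptgs*-/- against *Ptgs*+/+ tumors, with all 10 tumors and with each left out of the fit in turn. The rises range from 6, without *Ptgs*-/- replicate 2, to 14, without *Ptgs*+/+ replicate 3, and the falls from 6 to 8.

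Ratios of 2 genes within a tumor need no scaling between libraries, and their group values are geometric means. The pairs were chosen with the values known. *Col1a2* had 6.42-fold the counts of *Col4a1* in *Ptgs*+/+ tumors (range 5.44 to 8.39), 20.5-fold in *Ptgs*-/- tumors (15.6 to 26.1) and 13.6-fold in depleted *Ptgs*-/- tumors (12.3 to 14.6). The ratio of *Col1a1* to *Col18a1* was 21.5-fold (16.3 to 24.0), 104.5-fold (69.1 to 158) and 62.4-fold (51.6 to 72.2), and that of *Fn1* to *Tnc* 1.43-fold (0.85 to 1.99), 7.32-fold (5.41 to 10.5) and 4.05-fold (3.06 to 5.90). Each of these 3 pairs, like *Thbs2* over *Thbs1* above, sets a gene that rose over one that fell. The separation of the genotypes follows from that choice and is given for its size alone. *Col15a1* to *Col18a1* also changed, from 0.78-fold (0.69 to 0.90) to 2.34-fold (1.79 to 2.73) and 1.95-fold (1.75 to 2.10). That pair sets a gene that did not pass over one that fell, so its shift likewise follows from the choice. Ratios of the 2 chains of one trimer varied less, with *Col1a2* to *Col1a1* at 0.89-fold (0.76 to 1.11), 1.15-fold (1.03 to 1.31) and 1.11-fold (1.06 to 1.18).

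**Figure D5:**
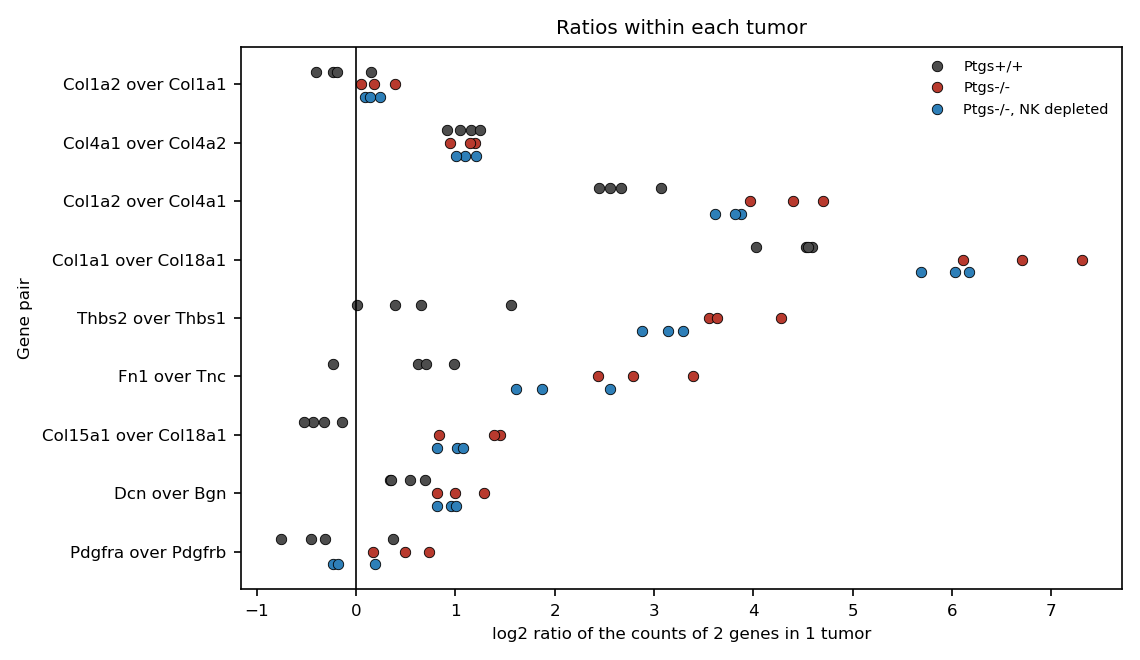
Log2 ratio of the counts of 2 matrix genes in each tumor (x axis) for 9 gene pairs (y axis), with *Ptgs*+/+ tumors in gray, *Ptgs*-/- in red and NK cell-depleted *Ptgs*-/- in blue. *Col4a1* over *Col4a2* stays between 1.89-fold and 2.37-fold in all 10 tumors, whereas *Col1a1* over *Col18a1* moves from at most 24.0-fold in the gray points to at least 51.6-fold in the others.

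The second comparison asked what depletion of NK cells did to the matrix genes of *Ptgs*-/- tumors. None of the 35 passed an FDR of 0.05 in edgeR's quasi-likelihood test in either direction. Over all genes tested, 0.515% were higher and 0.921% lower with NK cells present. At an unadjusted p under 0.05, 6 of the 35 were higher with NK cells and 1 lower, against 6.89% and 4.31% of all genes. DESeq2 and edgeR's likelihood ratio test each called 2 higher and 0 lower, and called 1.44% and 1.51% of all genes higher. Both of those tools called *Fbn1* and *Thbs2*. *Fbn1* was at 324, 448 and 303 CPM with NK cells and 183, 199 and 247 CPM without (log2 fold change 0.75 ± 0.18, edgeR FDR = 0.0754), and *Thbs2* at 271, 333 and 248 CPM against 172, 161 and 199 CPM (log2 fold change 0.66 ± 0.16, edgeR FDR = 0.0754). For both genes every tumor with NK cells lay above every depleted tumor.

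Groups with and without NK cells did not overlap for 7 genes that were higher with NK cells, *Col14a1*, *Fbn1*, *Fbln1*, *Fbln2*, *Sparc*, *Thbs2* and *Lox*, against 10.4% of all genes, and for 1 that was lower, *Postn*, against 7.16%. The shift of the 35 genes as a whole was small, with a median log2 fold change of 0.09 against -0.01 over all genes. *Col14a1* (log2 fold change 0.62 ± 0.21, edgeR FDR = 0.282), *Fbln2* (log2 fold change 0.44 ± 0.14, edgeR FDR = 0.204) and *Lox* (log2 fold change 0.55 ± 0.21, edgeR FDR = 0.35) were the next highest, and *Tnc* (log2 fold change -0.60 ± 0.23, edgeR FDR = 0.325) was the lowest. For type I collagen the 95% interval of the log2 fold change ran from -0.02 to 0.55 for *Col1a1* and from -0.04 to 0.70 for *Col1a2*, and for *Col3a1* from -0.22 to 0.45. *Col4a1* had an interval of -0.55 to 0.03, and *Thbs1*, with 20.1 ± 2.95 and 20.6 ± 2.55 CPM (SD, n = 3 each), one of -0.57 to 0.44. Skeletal muscle markers were far higher in the depleted tumors (10 of 13 tested), with sums of 35 to 218 CPM in *Ptgs*+/+, 149 to 504 CPM in *Ptgs*-/- and 2815 to 6863 CPM in depleted *Ptgs*-/- tumors. None of the 14 was at or below the floor in every tumor save *Tnnc2*. Their part in these values was not tested.

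The third comparison set depleted *Ptgs*-/- tumors against *Ptgs*+/+ tumors, and it shares its samples with the other two. Of the 35 genes, 4 rose (6.63% of all genes did) and 7 fell (5.87% of all genes), and 1 of the 7, *Thbs1*, also passed the fold threshold (0.701% of all genes), as none of the 4 did (2.01% of all genes). The median log2 fold change was 0.09. *Col1a2* (log2 fold change 0.60 ± 0.16, edgeR FDR = 0.0305), *Col14a1* (log2 fold change 0.69 ± 0.20, edgeR FDR = 0.0431), *Fn1* (log2 fold change 0.64 ± 0.15, edgeR FDR = 0.016) and *Postn* (log2 fold change 0.73 ± 0.22, edgeR FDR = 0.0449) rose. *Thbs1* (log2 fold change -2.19 ± 0.22, edgeR FDR = 0.000114), *Col18a1* (log2 fold change -1.26 ± 0.20, edgeR FDR = 0.00183), *Col8a1* (log2 fold change -1.05 ± 0.20, edgeR FDR = 0.00654), *Tnc* (log2 fold change -0.84 ± 0.21, edgeR FDR = 0.0256), *Fbln2* (log2 fold change -0.76 ± 0.13, edgeR FDR = 0.00275), *Col16a1* (log2 fold change -0.51 ± 0.10, edgeR FDR = 0.00812) and *Col4a1* (log2 fold change -0.48 ± 0.13, edgeR FDR = 0.0291) fell. With any 1 tumor left out the log2 fold change stayed between 0.50 and 0.69 for *Col1a2*, 0.52 and 0.81 for *Col14a1*, 0.52 and 0.72 for *Fn1*, and 0.56 and 0.93 for *Postn*. In those fits, no rise passed without depleted replicate 1 or depleted replicate 3, and 1 passed without depleted replicate 2. Over all genes, 653 rose without depleted replicate 1, 609 without replicate 2 and 553 without replicate 3, against 964 with all tumors. Of the falls, *Col4a1* was lost whichever depleted tumor was left out, and also without *Ptgs*+/+ replicate 2 or 4. *Tnc* was lost without depleted replicate 1 or 3 and without *Ptgs*+/+ replicate 2. *Thbs1*, *Col18a1*, *Col8a1*, *Fbln2* and *Col16a1* passed in every such fit.

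*Col4a2* did not pass in depleted against *Ptgs*+/+ tumors (log2 fold change -0.49 ± 0.15, edgeR FDR = 0.0568). Its groups did not overlap, and it passed in 8 of 19 alternative fits, among them DESeq2 and the likelihood ratio test. *Lum*, likewise just short (log2 fold change 0.56 ± 0.17, edgeR FDR = 0.0536), passed in 7 of the 19. *Thbs1*, at 17.2 to 23.3 CPM in all 6 *Ptgs*-/- tumors, and *Col8a1*, with 106 ± 39.5 and 108 ± 14.0 CPM (SD, n = 3 each), had overlapping values with and without NK cells. In depleted against *Ptgs*+/+ tumors, neither *Fbn1* (log2 fold change 0.46 ± 0.17, edgeR FDR = 0.0951) nor *Thbs2* (log2 fold change 0.29 ± 0.15, edgeR FDR = 0.224) passed.

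Other genes of matrix biology were counted by list. Over all genes tested, 12.1% rose and 11% fell in *Ptgs*-/- against *Ptgs*+/+ tumors. In *Ptgs*-/- against *Ptgs*+/+ tumors, 4 of 12 further collagen chains rose and 1 fell, and of 23 genes for collagen folding, modification and processing 5 rose and 2 fell. Elastic fiber genes had 2 of 14 higher and 1 lower, other proteoglycans 2 of 9 higher and 2 lower, laminins and other basement membrane genes 5 of 13 higher and 1 lower, other matricellular genes 5 of 14 higher and 4 lower, and matrix receptors 2 of 19 higher and 5 lower. The higher counts of some lists, such as elastic fiber genes and matrix receptors, lay near the 12.1% of all genes. No gene of these 7 lists passed between *Ptgs*-/- tumors with and without NK cells. Few genes did there over all tested, 0.515% higher and 0.921% lower with NK cells. In depleted *Ptgs*-/- against *Ptgs*+/+ tumors, the same lists in the same order had 3 higher and 2 lower, 1 and 3, 1 and 0, 0 and 2, 1 and 1, 3 and 2, and 1 and 1. Of all genes, 6.63% rose and 5.87% fell in that comparison.

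The gene with the largest change in each list is given with its levels. *Col4a4*, a type IV chain of specialized basement membranes, averaged 1.20 ± 0.50 CPM in *Ptgs*+/+ tumors (SD, n = 4) and 6.85 ± 2.32 CPM in *Ptgs*-/- tumors (n = 3), and rose (log2 fold change 2.42 ± 0.33, edgeR FDR = 0.000559). *Pcolce2*, which enhances removal of the procollagen C-propeptide, went from 30.1 ± 5.77 to 73.2 ± 30.3 CPM (log2 fold change 1.23 ± 0.24, edgeR FDR = 0.00358). *Pcolce*, of the same list, fell from 266 ± 14.1 to 171 ± 12.3 CPM (log2 fold change -0.70 ± 0.10, edgeR FDR = 0.000665). *Fbn2*, the second fibrillin, went from 25.6 ± 5.39 to 67.5 ± 6.04 CPM (log2 fold change 1.34 ± 0.16, edgeR FDR = 0.000296). *Ogn* (osteoglycin), a small proteoglycan, went from 20.5 ± 8.19 to 65.4 ± 40.7 CPM (log2 fold change 1.61 ± 0.38, edgeR FDR = 0.0109). Its *Ptgs*-/- values of 35.6, 112 and 48.8 CPM show the weight of replicate 2. *Vcan*, of the same list, fell from 195 ± 16.3 to 106 ± 11.65 CPM (log2 fold change -0.93 ± 0.11, edgeR FDR = 0.00025). *Pcolce* and *Vcan* were added with their values known. *Smoc2*, a matricellular protein related to SPARC that was counted with the basement membrane list, went from 10.3 ± 1.69 to 30.4 ± 6.32 CPM (log2 fold change 1.49 ± 0.17, edgeR FDR = 0.00024). *Itga10*, a collagen-binding integrin chain, fell from 7.42 ± 1.53 to 1.77 ± 0.42 CPM (log2 fold change -2.11 ± 0.25, edgeR FDR = 0.000298), and *Tnn* (tenascin-N), a relative of *Tnc*, from 11.99 ± 1.84 to 1.16 ± 0.89 CPM (log2 fold change -3.45 ± 0.39, edgeR FDR = 0.000218). *Tnxb* (tenascin-X), named after its values were seen, rose in the same comparison, from 3.85 ± 0.92 to 9.65 ± 2.42 CPM (log2 fold change 1.26 ± 0.27, edgeR FDR = 0.00624).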

How the data were processed

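Tumors were harvested on day 4 and their total RNA was made into Lexogen QuantSeq 3′ FWD libraries, 1 per tumor. The authors trimmed reads with BBDUK, fqtrim and cutadapt, mapped the rest to GRCm38 by STAR, counted with featureCounts per gene and deposited raw counts per gene with no normalization and no pooling. Handling of strand, multiply mapped reads and duplicates is not given in the sources used here. The submitters' processing notes also name bcl2fastq and edgeR, without versions.

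Groups were taken from the labels. The test was edgeR 4.0.16 under R 4.3.3 (filterByExpr, TMM, 1 quasi-likelihood model of all 10 libraries), with Benjamini-Hochberg adjustment across the 14550 genes tested. A gene rose or fell at an FDR at or under 0.05, and the fold criterion was an absolute log2 fold change of 1.5. Intervals of fold changes use the t distribution at the degrees of freedom of the test. CPM are counts per 1000000 counts of the library, without TMM, and a score is the mean log2(CPM + 1). Group values of every within-tumor ratio are geometric means, taken from the mean log2 ratio. The 35 genes and all gene lists were chosen with earlier results of these data known, so counts and medians stand without a list test. Genes given per tumor are those past the FDR in any comparison and the most abundant of each class, and from each further list the largest change past the FDR. Alternatives were DESeq2 1.42.0, the likelihood ratio test, library size alone, other filters, subsets of groups, the title code, a replicate block and leaving out each library. Names and gene positions came from GENCODE M21, with 563 identifiers unnamed, and promoters from RefSeq. Of the 35 genes, 18 overlap another annotated gene and 2, *Col4a1* and *Col18a1*, do so at their 3′ end.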

Additional observations from a re-analysis of the deposited data

Results flagged for a closer look

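In the 4 *Ptgs*+/+ tumors, none of the 35 genes had a highest or lowest value whose gap to the next exceeded Dixon's critical value, which chance passes in about 1 of 20 groups. Groups of 3 tumors were not tested in this way.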

How the results depend on the processing

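No value of the 35 genes that passed the FDR changed direction under any alternative. In *Ptgs*-/- against *Ptgs*+/+ tumors, 12 genes rose in the edgeR fit of all tumors, and with each tumor left out in turn 6 to 14 rose and 6 to 8 fell; 1 to 3 met the fold criterion as well, and 19 passed the FDR alone. Without *Ptgs*-/- replicate 2 the 12 became 6, and the genes that rose among all tested went from 1763 to 1156. Between *Ptgs*-/- tumors with and without NK cells, 0 genes were higher in the edgeR fit and 2 under DESeq2, the likelihood ratio test or no filter on low counts, with 0 to 1 when tumors were left out (1 without *Ptgs*+/+ replicate 3). In depleted *Ptgs*-/- against *Ptgs*+/+ tumors, 4 rose, 8 did without a filter and 2 with the title code as a term, 11 passed the FDR alone, and 0 to 6 rose when tumors were left out, with 0 without depleted replicate 1 or replicate 3, 1 without depleted replicate 2, 2 without *Ptgs*+/+ replicate 2 and 2 without *Ptgs*-/- replicate 3. Scaling by library size moved the median of all genes from -0.01 to 0.05 in the first comparison and left 13 higher and 7 lower. The cause of these shifts was not tested.

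Replicate numbers in the labels did not pair the tumors: deviations of same-numbered *Ptgs*-/- tumors with and without NK cells correlated at 0.05, 0.03 and 0.01, those of *Ptgs*-/- and *Ptgs*+/+ tumors (of which 2 share a number) at 0.36, -0.19, 0.06 and 0.24, and those of depleted *Ptgs*-/- and *Ptgs*+/+ tumors at -0.08, 0.15, -0.24 and 0.17. With the replicate block, the first comparison kept counts of 12 higher and 7 lower, the second 0 and 0, and the third had 3 higher and 8 lower. With 3 or 4 tumors per group, and the second title code on 2 of them, small differences could not be resolved: the median standard error of a log2 fold change was 0.16 to 0.17.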

Other observations

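The type IV chains did not move together. *Col4a1* and *Col4a2* fell in *Ptgs*-/- against *Ptgs*+/+ tumors, while *Col4a4* rose from 1.56, 0.93, 1.67 and 0.63 CPM to 5.64, 9.52 and 5.38 CPM, and stood at 3.75, 4.43 and 4.27 CPM in depleted *Ptgs*-/- tumors (log2 fold change 1.72 ± 0.33 against *Ptgs*+/+, edgeR FDR = 0.00636). *Col4a3*, its partner in the specialized trimer, was near the floor at 0.81 ± 0.73 CPM in *Ptgs*+/+ tumors (SD, n = 4) and 0.92 ± 0.59 CPM in *Ptgs*-/- tumors (n = 3), and did not pass (edgeR FDR = 0.845). *Col4a5* was at 8.85 ± 1.17 and 12.8 ± 4.77 CPM and did not pass (edgeR FDR = 0.178). These 3 chains were singled out after their values were seen.

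Among the collagen-modifying enzymes, *P4ha1* and *P4ha3*, chains of the prolyl hydroxylase that stabilizes the triple helix, rose in *Ptgs*-/- against *Ptgs*+/+ tumors, as did *Plod2*, a lysyl hydroxylase. Log2 fold changes were 0.68 ± 0.19, 1.06 ± 0.29 and 0.66 ± 0.19 (edgeR FDR = 0.0253, 0.0216 and 0.0293). The *Ptgs*-/- tumors spread widely, with *P4ha1* going from 121 ± 20.5 to 202 ± 66.5 CPM (SD). *P4ha3* went from 13.15 ± 1.3 to 28.4 ± 15.4 CPM and *Plod2* from 79.3 ± 20.4 to 130 ± 27.2 CPM. *Serpinh1*, the collagen chaperone HSP47, was at 1113 ± 50.2 CPM in *Ptgs*+/+ and 1201 ± 17.9 CPM in *Ptgs*-/- tumors and did not pass (log2 fold change 0.05 ± 0.08, edgeR FDR = 0.704), while the type I collagen genes rose in the same tumors. *Plod3*, another lysyl hydroxylase, fell (log2 fold change -0.39 ± 0.11, edgeR FDR = 0.025), and *Plod1* and *P4ha2* did not pass (edgeR FDR = 0.515 and 0.0779). These 7 genes were also singled out after their values were seen.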
